A study of Mus musculus with 12 samples.

Results

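The interferon response genes were followed in the hearts of C57BL/6J mice given carbon tetrachloride (CCl4) and of Control mice. They are 33 genes, chosen by name from the 31722 genes of the table and not by their values. All 33 were in the table: 21 were grouped as type I members and 12 as type II members. Hearts of 6 Control mice and of 6 CCl4 mice were profiled by sequencing of messenger RNA, 1 library per heart. CCl4 poisons the liver and is a standard agent for scarring it in rodents; the study's stated question is how a scarred liver bears on heart function. All mice are of the same strain. The labels give no sex, age, dose, route, time or vehicle, and say no more of the Control mice than that they are controls.

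Interferons are secreted proteins that put cells into a state of defence against viruses and other microbes. Type I interferons (alpha and beta) act through a receptor whose kinases activate a complex that includes STAT2 and IRF9, and this complex binds the interferon-stimulated response element (ISRE) of its target genes. Type II interferon (gamma), made by T cells and natural killer cells, acts through its own receptor and, in the nucleus, through the gamma-activated site (GAS). Many target genes answer both types, so the division into type I and type II members names the stronger response and is not strict.

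Sequences upstream of the members show both elements. RefSeq starts on GRCm38.p6 were found for 26 members, of which Ifit2, Irf9, Gbp3 and Irf1 have more than 1 start. The 250 bases before each start were searched for the ISRE letters (GAAA, any 2 bases, then GAAA) and the GAS letters (TTC, any 3 bases, then GAA), on both strands. The ISRE letters stood upstream of 7 of 16 type I members and 7 of 10 type II members, while 2.98% of all 32851 promoter windows of that length hold them. The GAS letters stood upstream of 3 type I and 4 type II members, against 7.02% of all windows. A match describes the letters and is not evidence of binding. Oasl1, Oasl2, Irf7, Irf9, Ifih1, Ifi44, Ifi35, Xaf1, Cxcl9 and Tap1 were searched and held neither. Oas2, Mx1, Mx2, Usp18, Zbp1, Gbp6 and Iigp1 were not searched.

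The stretches below are from members chosen by hand among those with a match. They are shown 5′ to 3′ on the strand of the gene, with the ISRE or GAS letters in capitals. They come from RefSeq on GRCm38.p6. In type I members ISRE letters were read on either strand, and in Isg15 and Bst2 several matches overlap; in Bst2 a GAS match runs into them:
Ifit1 (chr19:34640760-34640838, plus strand): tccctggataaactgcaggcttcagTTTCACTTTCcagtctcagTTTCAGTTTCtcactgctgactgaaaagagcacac
Ifit3 (chr19:34583348-34583441, plus strand): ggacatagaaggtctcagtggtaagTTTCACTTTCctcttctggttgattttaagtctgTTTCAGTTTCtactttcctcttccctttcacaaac
Rsad2 (chr12:26456538-26456597, minus strand): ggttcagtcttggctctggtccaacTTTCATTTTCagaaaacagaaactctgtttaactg
Isg15 (chr4:156200850-156200921, minus strand): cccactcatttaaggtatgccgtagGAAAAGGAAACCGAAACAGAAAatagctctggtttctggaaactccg
Bst2 (chr8:71537562-71537633, minus strand): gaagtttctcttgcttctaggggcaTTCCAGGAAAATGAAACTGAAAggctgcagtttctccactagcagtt
In type II members the following stretches carry a pair of overlapping ISRE matches (Gbp3), a GAS (Irf1) or a GAS followed by an ISRE (Igtp and Irgm2):
Gbp3 (chr3:142559974-142560039, plus strand): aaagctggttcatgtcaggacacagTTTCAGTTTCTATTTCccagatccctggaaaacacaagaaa
Igtp (chr11:58199486-58199555, plus strand): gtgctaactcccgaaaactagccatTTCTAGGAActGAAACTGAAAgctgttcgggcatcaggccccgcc
Irgm2 (chr11:58214877-58214947, plus strand): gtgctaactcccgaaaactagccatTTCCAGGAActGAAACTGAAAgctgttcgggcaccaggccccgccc
Irf1 (chr11:53769899-53769957, plus strand): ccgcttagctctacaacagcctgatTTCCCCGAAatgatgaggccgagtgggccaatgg

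The last 14 bases of the Gbp3 stretch lie in an exon of Gbp3 in GENCODE M21. Igtp and Irgm2 are neighbours on chromosome 11. Aligned on the ISRE, 68 of the 70 bases shown for both were identical, and 134 of 220 over the whole window. Their values across hearts, given further on, should be read with this likeness and with the 162 exon bases that they share in GENCODE M21.

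**Figure D1:**
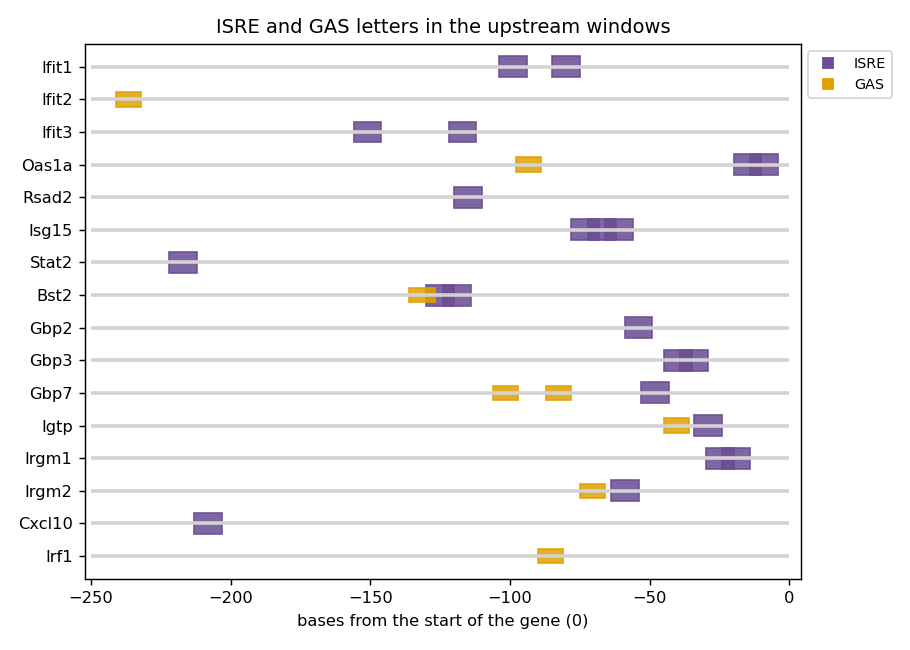
ISRE (purple) and GAS (yellow) letters in the 250 bases upstream of each member with a match; the horizontal axis is the distance in bases from the start of the gene. Igtp and Irgm2 carry the same pair, GAS then ISRE, at -45 and -34 and at -75 and -64 bases.

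The libraries differed in depth and in makeup. Relative depth, in steps of the RPKM scale (reads scaled to gene length and library size), ran from 2.64e+07 to 6.34e+07 steps. CCl4 replicate 3 was the highest of the 12 hearts in 41.4% of the 14087 genes tested (0.5 RPKM or more in at least 6 hearts) and CCl4 replicate 2 the lowest in 44.5%, so the hearts were unevenly ordered over genes at large. Xist, a transcript of female cells, was above 5 RPKM in all but replicates 2 and 5 of each group. Heart muscle markers (Myh6, Actc1, Tnnt2, Ryr2, Myl2, Pln) summed to between 16243 and 27632 RPKM, lowest in CCl4 replicate 3, so heart muscle genes were abundant in every heart. The atrial light chain Myl7 ran from 0.811 RPKM (CCl4 replicate 6) to 419 RPKM (Control replicate 1). In RNA of whole hearts, fewer cells of a type and less RNA per cell cannot be told apart.

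No interferon response gene passed the test between CCl4 and Control hearts. Of 32 members tested with limma on log2(RPKM + 1), 0 were higher and 0 lower at an adjusted p under 0.05, as were 0% of all 14087 genes in either direction. An exact rank-sum test also called 0 genes after adjustment, and 1180 lower and 89 higher before it. The smallest adjusted p of a member was 0.386. At an unadjusted p under 0.05, 2 members lay lower (6.25%, against 8.58% of all genes) and 0 lay higher (against 1.6%), shares that are no larger than those of genes at large. In no member were the groups free of overlap, while 0.724% of all genes lay wholly lower and 0.0355% wholly higher. The remaining member, the chemokine Cxcl10, reached 0.5 RPKM in 1 heart and was not tested with limma.

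The type I median lay below 0, as did that of all genes, and the type II median lay above 0, both by small amounts. Type I members had a median log2 fold change of -0.0856 (15 of 21 below 0, or 71.4%), against -0.0483 for all genes tested, of which 65.7% were below 0. Type II members had a median of 0.0836, with 8 of 11 above 0 (72.7%, against 34.3% of all genes). Both medians were smaller than the spread of a set's mean level between hearts of a group (SD 0.261 for type I and 0.219 for type II, on the log2 scale). These counts describe the sets, and the difference between them was not tested.

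**Figure D2:**
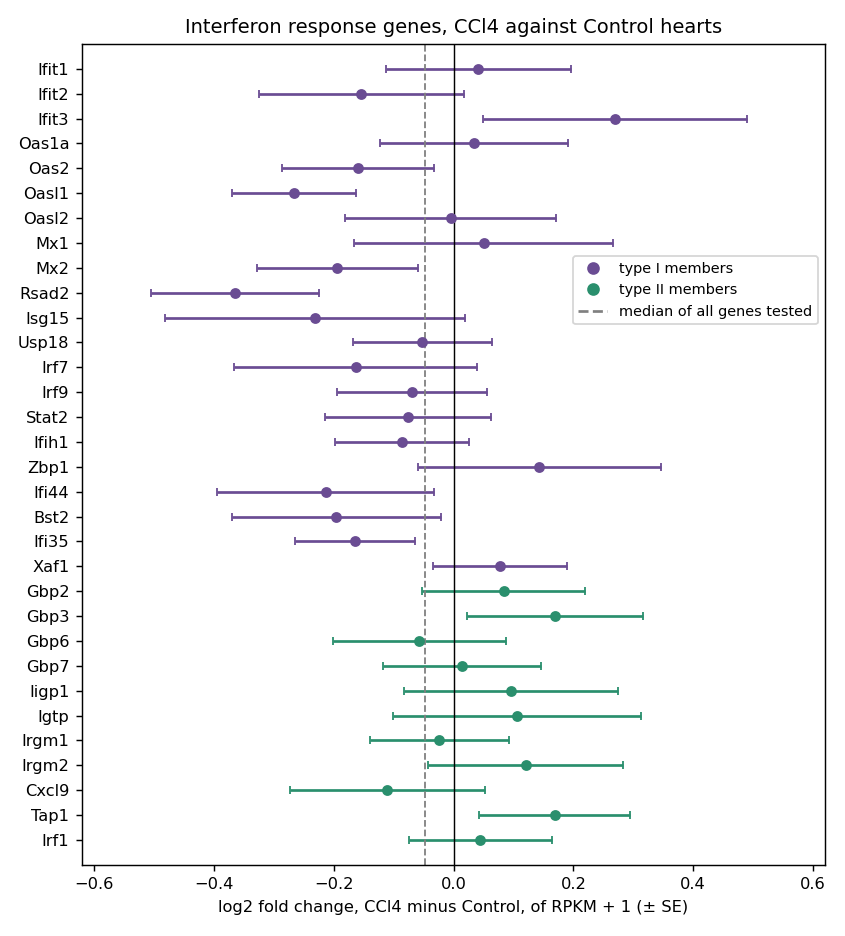
Log2 fold change (CCl4 minus Control, of RPKM + 1) with its standard error for the 32 tested members, type I in purple and type II in green; the dashed line is the median of all genes tested, -0.0483. The values run from -0.36 (Rsad2) to 0.27 (Ifit3), and none passed the test.

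The IFIT proteins bind foreign or unmodified RNA and stop its translation. Ifit3 was the most abundant type I member. It was at 28.3, 33.5 and 45.4 RPKM (lowest, median and highest) in Control and at 30.8, 38 and 90.2 RPKM in the CCl4 group. The high end of the CCl4 group was 1 heart, replicate 3, and the other 5 lay within the Control range. The log2 fold change was 0.27 (SE 0.22, limma adjusted p = 0.71). Its near-identical neighbour Ifit3b, which can share its reads, was at 8.75 ± 1.47 and 10.6 ± 4.71 RPKM (SD, n = 6 each).

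Ifit1 was at 1.76, 2.1 and 3.1 RPKM in the Control group and 1.69, 2.04 and 4.4 RPKM in the CCl4 group. Again CCl4 replicate 3 was highest, at 2.09 times the Control median, and the remaining values overlapped. Ifit2 was at 8.45 ± 1.47 RPKM in the Control group and 7.7 ± 2.68 RPKM in the CCl4 group, and 5 of 6 CCl4 hearts lay below the Control median.

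The oligoadenylate synthetases make a messenger that switches on an RNA-degrading enzyme, and the OAS-like proteins are their relatives. Oasl1, an OAS-like protein that limits translation of Irf7, had one of the 2 smallest p among members. Oasl1 was at 0.604, 1.07 and 1.21 RPKM in the Control group and 0.496, 0.575 and 1.18 RPKM in the CCl4 group. The groups overlapped through Control replicate 1, the low one, and CCl4 replicate 3, the high one. The log2 fold change was -0.27 (SE 0.10, limma adjusted p = 0.397, and 0.0229 before adjustment). These are low levels, near the expression filter.

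Oas2 was at 2.86, 3.27 and 3.58 RPKM in the Control group and 1.94, 2.72 and 4.36 RPKM in the CCl4 group. The CCl4 hearts spread to both sides of the Control range, and 5 of 6 lay below the Control median. Oas1a (1.98 ± 0.288 and 2.14 ± 0.912 RPKM) and Oasl2 (4.21 ± 0.427 and 4.44 ± 2.15 RPKM) had group means that differed by less than the SD of either group. Oas1a has a near-identical relative, Oas1g, that can share its reads.

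Viperin (Rsad2) is a radical enzyme that makes a chain-ending nucleotide from CTP. On the log2(RPKM + 1) scale it had the smallest p and the fold change farthest from 0 among members; with a pseudocount of 0.1 Oasl1 did, at -0.54 against -0.47. Rsad2 was at 3.29, 3.67 and 5.04 RPKM in the Control group and 1.85, 3.22 and 3.7 RPKM in the CCl4 group. The low end of CCl4 was replicates 2 and 4, and the groups overlapped between 3.29 and 3.7 RPKM. The log2 fold change was -0.36 (SE 0.14, limma adjusted p = 0.386, and 0.0211 before adjustment). Rsad2 was also the only type I member in which CCl4 replicate 3 lay below the Control median, at 0.914 times it. Cmpk2, the kinase that supplies its CTP, was at 2.77 ± 0.512 and 2.01 ± 0.694 RPKM (log2 fold change -0.35, limma adjusted p = 0.43, and 0.0324 before adjustment).

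The Mx proteins are dynamin-like GTPases that block viruses. Mx2 was at 1.5, 2.25 and 2.54 RPKM in the Control group and 1.07, 1.65 and 2.96 RPKM in the CCl4 group. All CCl4 hearts but replicate 3 lay below the Control median, within an overlapping range. Mx1, which is defective as a protein in C57BL/6 mice, was at 1.15 ± 0.291 and 1.38 ± 1.17 RPKM. Its CCl4 replicate 3 was at 3.72 RPKM and the other CCl4 hearts at 1.22 RPKM or less.

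ISG15 is a ubiquitin-like protein that is attached to other proteins, and USP18 removes it and also holds back signalling at the type I receptor. Isg15 was at 10.3, 14.9 and 17.2 RPKM in the Control group and 7.66, 10.1 and 28.2 RPKM in the CCl4 group. Replicates 2, 4 and 6 of the CCl4 group were under the whole Control range and replicate 3 was over it. The log2 fold change was -0.23 (SE 0.25, limma adjusted p = 0.801). Usp18 was at 2.37 ± 0.534 and 2.24 ± 0.449 RPKM.

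IRF7 is the factor that amplifies type I interferon production, and STAT2 and IRF9 are the parts of the ISRE-binding complex that are particular to type I signalling. Irf7 was at 3.49, 5.24 and 6.37 RPKM in the Control group and 3.06, 3.9 and 9.29 RPKM in the CCl4 group. As with Isg15, replicate 3 was the high CCl4 heart and the other 5 lay below the Control median. Stat2 (7.49 ± 0.798 and 7.21 ± 2.04 RPKM) and Irf9 (5 ± 0.459 and 4.81 ± 1.29 RPKM) were also highest in CCl4 replicate 3 and had a wider spread in the CCl4 group.

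**Figure D3:**
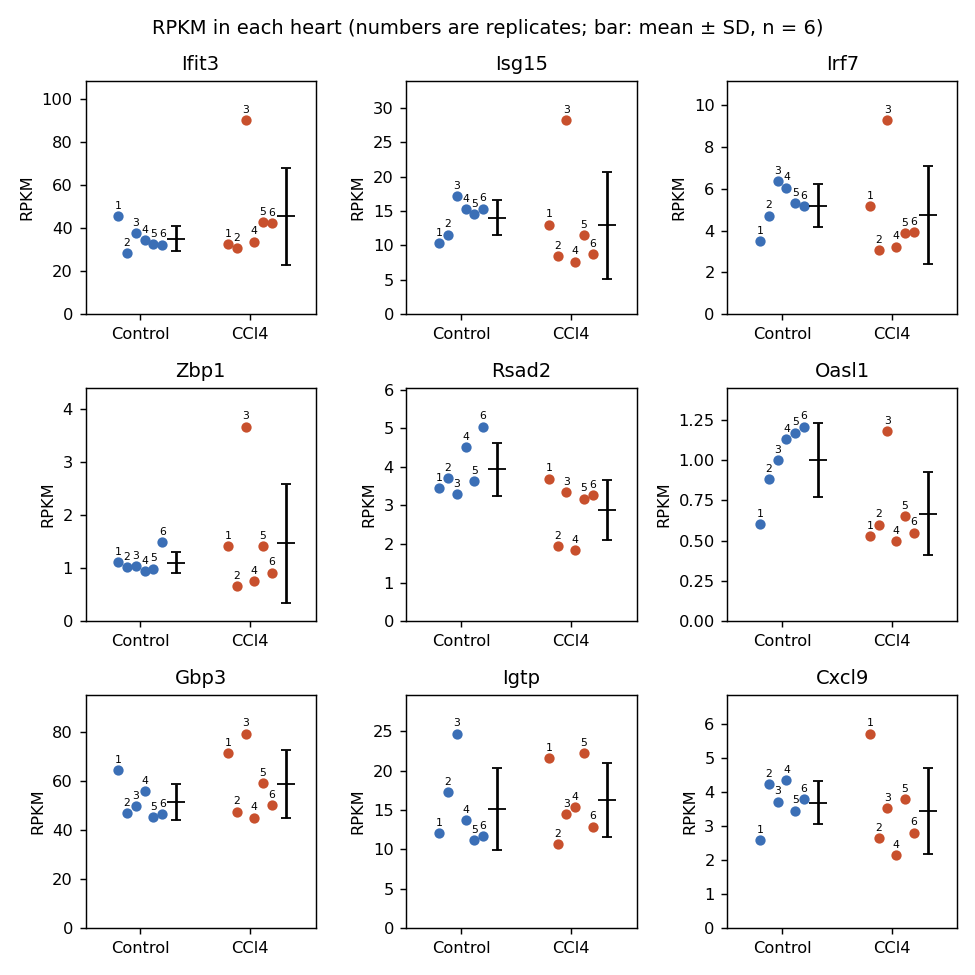
RPKM in each of the 12 hearts for 6 type I members (Ifit3, Isg15, Irf7, Zbp1, Rsad2, Oasl1) and 3 type II members (Gbp3, Igtp, Cxcl9), each point numbered by replicate, with the mean ± SD (n = 6) beside it; axes start at 0. In Ifit3, Isg15, Irf7 and Zbp1 the single high point is CCl4 replicate 3, and in Cxcl9 it is CCl4 replicate 1 at 5.73 RPKM.

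Of the sensors, ZBP1 detects Z-form nucleic acid and starts cell death, and MDA5 (Ifih1) detects long double-stranded RNA. Zbp1 was at 1.1 ± 0.197 RPKM in the Control group and 1.47 ± 1.12 RPKM in the CCl4 group. CCl4 replicate 3 stood at 3.67 RPKM, 3.56 times the Control median and the largest such ratio of a member. Ifih1 was at 1.97 ± 0.22 and 1.83 ± 0.539 RPKM.

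Bst2 (tetherin), which holds budding viruses on the cell surface, was at 14.5, 16.4 and 18.8 RPKM in the Control group and 9.45, 13.8 and 24.3 RPKM in the CCl4 group. Ifi44 was at 2.77, 3.49 and 4.09 RPKM in the Control group and 1.89, 2.48 and 5.76 RPKM in the CCl4 group. In both genes the CCl4 group reached below and above the Control range, with replicate 3 at the top and replicate 4 at the bottom. Ifi35 was at 8.79, 10.4 and 12.5 RPKM in the Control group and 7.71, 9.14 and 10.9 RPKM in the CCl4 group, with 5 of 6 below the Control median. The antisense gene Gm11626 shares 290 exon bases with Ifi35, and without a stated strand setting their reads cannot be told apart. Xaf1, a factor that promotes apoptosis, was at 4.18 ± 0.412 and 4.53 ± 1.01 RPKM.

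Among type II members, the guanylate-binding proteins (GBP) and the immunity-related GTPases (IRG) attack the vacuoles of intracellular parasites and bacteria. Gbp3 was the most abundant member of all. It was at 45.3, 48.4 and 64.5 RPKM in the Control group and 45.1, 54.7 and 79.5 RPKM in the CCl4 group. CCl4 replicates 3 and 1 were the highest hearts and Control replicate 1 came next. The log2 fold change was 0.17 (SE 0.15, limma adjusted p = 0.735).

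Gbp2 was at 16.1, 17.8 and 23.3 RPKM in the Control group and 13.8, 19.2 and 25.9 RPKM in the CCl4 group, with the same 3 hearts on top. Gbp6 (14.2 ± 3.19 and 13.6 ± 2.69 RPKM) shares 1726 exon bases with the gene model Gm43302, and Gbp7 (8.08 ± 0.736 and 8.33 ± 2.07 RPKM) shares 637 with a pseudogene, so reads of both are uncertain. The group means of these 3 genes differed by less than the SD of either group.

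Igtp, also called Irgm3, is an IRG protein that guards the cell's own membranes. It was at 11.2, 12.9 and 24.7 RPKM in the Control group and 10.7, 14.9 and 22.2 RPKM in the CCl4 group. Its 3 highest hearts were Control replicate 3, CCl4 replicate 5 and CCl4 replicate 1. The same 3 hearts, in the same order, were highest in Irgm2 (8.46 ± 2.39 and 9.18 ± 1.9 RPKM), whose promoter stretch is nearly the same. They were also the top 3 in Iigp1 (23.5 ± 5.69 and 25.3 ± 6.53 RPKM), which lies on chromosome 18, in another order. In Irgm1 (3.89 ± 0.595 and 3.83 ± 0.769 RPKM) Control replicate 3 was highest and CCl4 replicate 3 came second. So the high IRG values were found in hearts of both groups.

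CXCL9 and CXCL10 are chemokines that call in T cells and natural killer cells. Cxcl9 was at 2.6, 3.75 and 4.35 RPKM in the Control group and 2.14, 3.17 and 5.73 RPKM in the CCl4 group. CCl4 replicate 1 was highest and the other 5 CCl4 hearts lay within or below the Control range. Cxcl10 was at 0.0756, 0.157 and 0.202 RPKM in the Control group and 0.0885, 0.165 and 0.553 RPKM in the CCl4 group (exact two-sided permutation p = 0.433). These values rest on 7.99 to 59.9 steps of the scale, so counting error is large. The gene Art3 overlaps it on the opposite strand.

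TAP1 carries peptides to class I molecules, and IRF1 is the factor through which interferon gamma reaches many of its targets. Tap1 was at 1.85, 2.48 and 2.68 RPKM in the Control group and 1.95, 2.81 and 3.83 RPKM in the CCl4 group. In 4 CCl4 hearts (replicates 1, 3, 5 and 6) Tap1 exceeded the whole Control group, and in replicates 2 and 4 it fell short of the Control median. The log2 fold change was 0.17 (SE 0.13, limma adjusted p = 0.681). Irf1 was at 6.6 ± 0.276 and 6.97 ± 1.6 RPKM.

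The order of hearts differed between the 2 sets. CCl4 replicate 3 was the highest of all 12 hearts in 17 of 21 type I members (81%, against 41.4% of all genes tested). It lay above the Control median in 20 of 21, and in 9718 of the 14087 genes tested. Its ratio to the Control median had a median of 1.49 over type I members and 1.28 over type II members, against 1.15 over all genes. CCl4 replicate 4 was the lowest heart in 13 type I members (61.9%, against 6.04% of all genes). CCl4 replicate 2 was lowest in 6 (28.6%, against 44.5% of all genes), a smaller share than in genes at large. The mean of log2(RPKM + 1) over the 21 genes was 3 in CCl4 replicate 3, 2.27 to 2.51 in Control hearts, and 2 and 2.06 in CCl4 replicates 4 and 2. So both ends of the order were CCl4 hearts, and all Control hearts lay between them.

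In type II members CCl4 replicate 1 had the highest mean level. It was above the Control median in all 11 tested members, and in 1825 of the 14087 genes tested. It was highest in 3 of the 11 (27.3%), while it was highest in 0.887% and lowest in 15.8% of all genes tested. CCl4 replicate 3 and Control replicate 3 were each highest in 4 of the 11 (36.4%, against 41.4% and 10.3% of all genes), and CCl4 replicates 1 and 3 had the same median rank, 2. The mean of the 11 genes was 3.85 there, 3.71 in CCl4 replicate 3, 3.69 in Control replicate 3 and 3.67 in CCl4 replicate 5. The lowest was CCl4 replicate 2 at 3.15, and the other hearts lay between 3.28 and 3.52. In type I members CCl4 replicate 1 ranked 6 of 12, at 2.38. Control replicate 5 ranked 5 in type I and 11 in type II members.

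**Figure D4:**
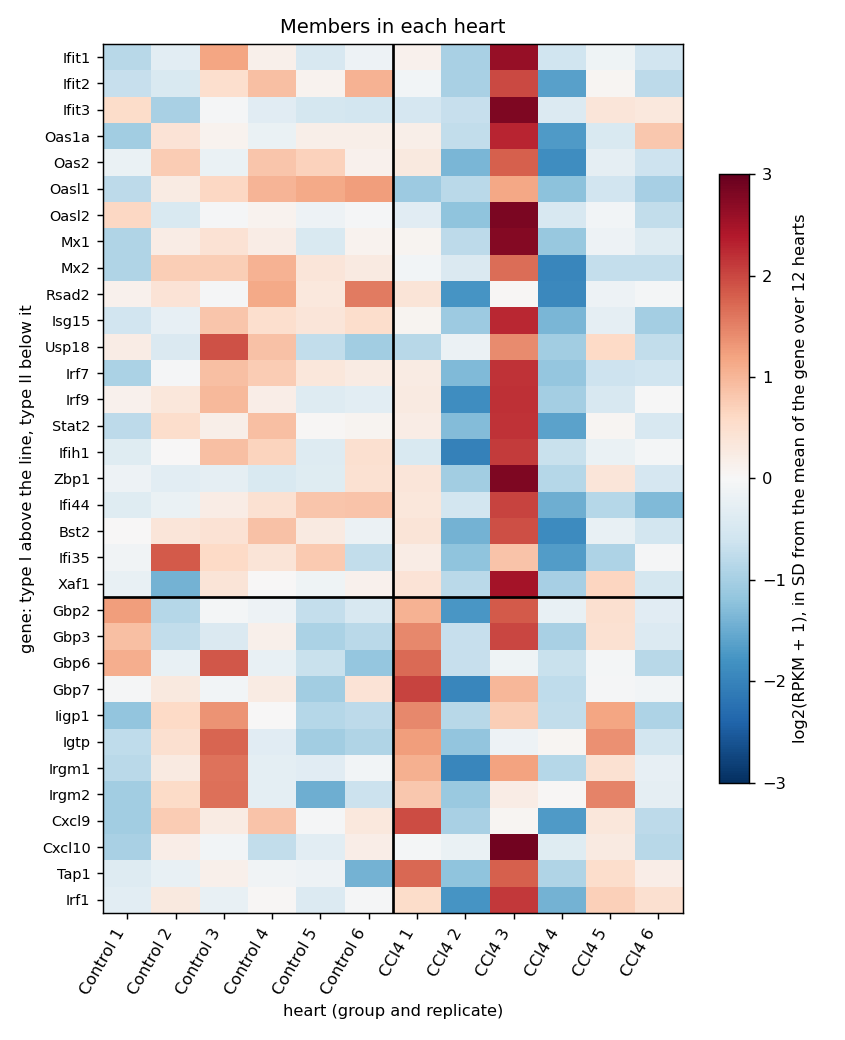
Each gene's log2(RPKM + 1) in each heart, in SD from that gene's mean over the 12 hearts; the 21 type I members are above the horizontal line, the 12 type II members below it, Control hearts on the left. The CCl4 replicate 3 column is red through most type I rows, and the CCl4 replicate 1 column is red through all type II rows but Cxcl10.

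**Figure D5:**
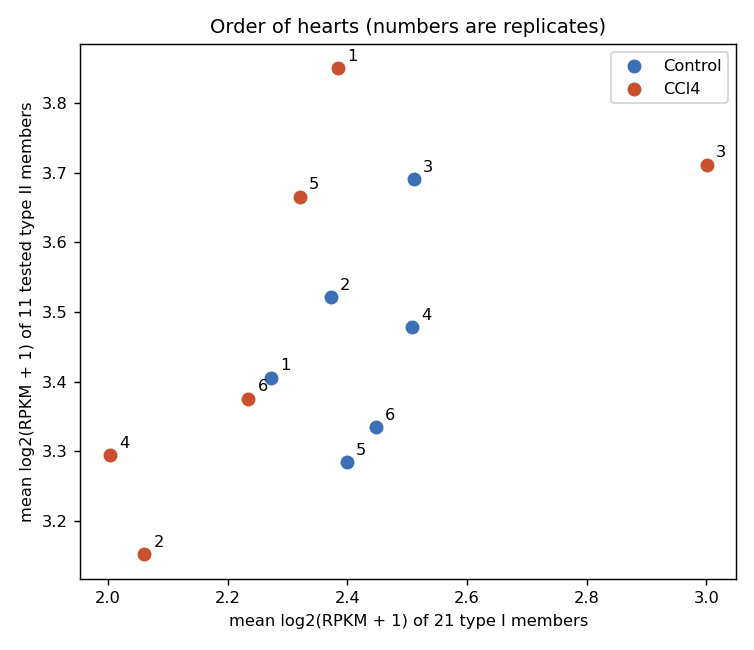
Mean log2(RPKM + 1) of the 21 type I members (horizontal) against that of the 11 tested type II members (vertical), 1 point per heart, blue for Control and red for CCl4. CCl4 replicate 3 is farthest right at 3 and CCl4 replicate 1 highest at 3.85; CCl4 replicates 2 and 4 are farthest left.

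Target genes outside the list were ordered in part differently. Of 26 other tested type I responders, such as Ifitm3 and Parp14, CCl4 replicate 3 was highest in 24 (92.3%, against 41.4% of all genes). Cmpk2 was highest in Control replicate 6 and Dhx36 in Control replicate 1. CCl4 replicate 2 was lowest in 13 of the 26 (50%, against 44.5% of all genes) and CCl4 replicate 4 in 7 (26.9%, against 6.04%). Among type I members replicate 4 was the more often lowest. Of 20 other type II responders, such as Gbp5, Psmb9 and B2m, CCl4 replicate 3 was highest in 10 (50%, against 41.4%) and CCl4 replicate 1 in 7 (35%, against 0.887%).

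Some markers of blood-derived cells stood high in the same heart as the type I members. The sum of 6 macrophage markers was 37.1 RPKM in CCl4 replicate 3, 6.46 to 19.7 RPKM in the other CCl4 hearts and 8.31 to 10.4 RPKM in Control hearts, and all 6 had a higher mean in CCl4. The sum of 4 monocyte markers was 3.27 RPKM in that heart and at most 1.08 RPKM elsewhere. Ccr2 made up 2.44 RPKM of it, while Ly6c2 (0.0834 RPKM) and Chil3 (0.0763 RPKM) were lower there than in Control replicate 6 (0.111 and 0.140 RPKM). The sum of 6 T cell markers was 2.9 RPKM in CCl4 replicate 3 and at most 1.83 RPKM elsewhere. Natural killer and neutrophil markers also summed highest in CCl4 replicate 3, at 1.44 and 2.97 RPKM (at most 0.937 and 2.11 RPKM elsewhere). Gzma made up 0.899 RPKM and S100a9 2.07 RPKM of these sums, and both were highest there, as were Nkg7, Prf1 and Csf3r. Ncr1 was higher in CCl4 replicate 4 (0.215 against 0.0809 RPKM) and Klrb1c in Control replicate 1 (0.0431 against 0.0281 RPKM). S100a8 was higher in Control replicate 4 (0.383 against 0.239 RPKM) and Retnlg in CCl4 replicate 5 (0.129 against 0.0683 RPKM). Plasmacytoid dendritic cell markers other than Bst2 summed to 3.4 RPKM in CCl4 replicate 3 (at most 3.2 RPKM elsewhere), of which Tcf4 made up 3.35 RPKM. Siglech (0.0246 RPKM) and Ccr9 (0.0344 RPKM) were lower there than in Control replicate 2 (0.0479 and 0.0664 RPKM). B cell markers summed highest in CCl4 replicate 4, at 1.57 RPKM. At 0 in at least 1 heart were the defining markers Chil3, Cd3d, Cd3e, Klrb1c, Nkg7, Prf1, Siglech, S100a8 and Retnlg. CCl4 replicate 3 had the highest sum of fibroblast markers, 339 RPKM against 61.1 to 208 RPKM in the others. The 6 endothelial markers had a lower mean in CCl4 (281 to 357 RPKM summed in Control, 214 to 271 RPKM in the CCl4 group). The part of these cells in the interferon genes was not tested.

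Since 1 heart stood at the top of the type I set, each heart was also left out in turn. Without CCl4 replicate 3, 11 of the 32 members lay lower at an unadjusted p under 0.05 (34.4%, against 14.2% of all genes in the same fit) and 0 passed the adjusted test (smallest limma adjusted p = 0.146). All 11 were type I members: Ifit2, Oas2, Oasl1, Oasl2, Mx2, Rsad2, Isg15, Irf7, Ifi44, Bst2 and Ifi35. Isg15 was then at 9.86 ± 2.28 RPKM in the 5 CCl4 hearts (log2 fold change -0.47, SE 0.15, limma adjusted p = 0.199). The type I median was -0.191, with 20 of 21 below 0, and that of all genes -0.0838. The type II median was 0.00327. Without CCl4 replicate 2 the count of lower members was 1, and without CCl4 replicate 4 or Control replicate 6 it was 0. The calls of single type I genes therefore depended on which heart was kept, and CCl4 replicate 3 was singled out after its values were seen. That heart was the highest in 81% of type I members and in 41.4% of all genes tested. Leaving it out favours lower calls in type I members, so no conclusion is drawn from 34.4% against 14.2%.

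Upstream of the members, 2 interferon genes of the list had values. Ifng was at 0 to 0.0537 RPKM in the Control group and 0 to 0.0344 RPKM in the CCl4 group. Ifnk was listed at 0 in every Control heart and at up to 0.0392 RPKM in the CCl4 group. The other ligands of the list were not among the genes of the table. All 6 receptor chains were tested and none passed. Ifnar1 (2.35 ± 0.158 and 2.36 ± 0.635 RPKM) and Ifnar2 (8.59 ± 0.598 and 9.07 ± 2.06 RPKM) form the type I receptor, and Ifngr1 (18.7 ± 2.56 and 20.8 ± 6.77 RPKM) and Ifngr2 (8.05 ± 1.67 and 8.34 ± 1.71 RPKM) the type II receptor. Ifnlr1 was at 0.559 ± 0.0803 and 0.612 ± 0.126 RPKM and Il10rb at 12.8 ± 1.03 and 12.9 ± 0.68 RPKM.

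The kinases Jak1 (11.1 ± 1.78 and 12.2 ± 1.92 RPKM), Jak2 (6.17 ± 0.782 and 6.87 ± 1.53 RPKM) and Tyk2 (1.43 ± 0.219 and 1.52 ± 0.331 RPKM) differed by less than the SD of the CCl4 group. Irf8, a factor of the macrophage lineage, was at 0.666 ± 0.0757 and 0.91 ± 0.502 RPKM. Stat3 (2.67 ± 0.313 and 2.47 ± 0.648 RPKM), Irf2 (4.26 ± 0.453 and 3.95 ± 0.808 RPKM) and Irf3 (7.05 ± 0.844 and 6.67 ± 0.842 RPKM) had lower means in CCl4 hearts, and Irf5 was at 3.96 ± 0.259 and 4.04 ± 0.661 RPKM. None of these kinases and factors passed the limma test.

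Of 74 tested genes of the wider pathway list, 0 passed the adjusted test, and at an unadjusted p under 0.05 Gbp5 lay higher and Cmpk2 lower (1.35% each, against 1.6% of all genes higher and 8.58% lower). Gbp5, which assembles inflammasomes, was at 5.38 ± 1.37 and 6.93 ± 0.868 RPKM (log2 fold change 0.33, SE 0.13, limma adjusted p = 0.383). Psme2, a proteasome activator subunit, was at 29.2 ± 3.37 and 25.9 ± 2.4 RPKM, and Gbp8 at 2.01 ± 0.595 and 2.56 ± 0.842 RPKM. Among sensing genes the smallest p were those of the adaptor Mavs (3.47 ± 0.268 and 3.01 ± 0.541 RPKM), the ligase Trim25 (3.99 ± 0.327 and 3.45 ± 0.673 RPKM) and the kinase Tbk1 (8.98 ± 0.7 and 8.4 ± 1.49 RPKM). Of the inhibitors, the phosphatase Ptpn6, abundant in blood cells, was at 4.15 ± 0.681 and 6.85 ± 4.35 RPKM, Ptpn2 at 5.88 ± 0.584 and 5.27 ± 1.1 RPKM and Pias1 at 1.39 ± 0.152 and 1.34 ± 0.234 RPKM. Parp14 (6.17 ± 0.769 and 5.63 ± 0.94 RPKM) and Trim21 (3.98 ± 0.321 and 3.66 ± 0.821 RPKM) followed Cmpk2 among the other type I responders. Ifitm1, another of these responders, was under the filter and not tested with limma. It was at 0.139 to 0.445 RPKM in Control and 0.427 to 0.714 RPKM in the CCl4 group (exact two-sided permutation p = 0.00433, not adjusted). The groups overlapped, the levels are low, and Ifitm1 was picked for its values among the genes under the filter.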

How the data were processed

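The authors deposited RPKM values for 31722 gene symbols, 1 column per heart. Per the submitters' processing notes, the tools were Trimmomatic 0.36, featureCounts and Subread 1.5.1 and the build GRCm38. The aligner, annotation release and strand setting are not given in the sources used here, though the labels' protocols name a stranded library kit. RPKM times exon length in GENCODE M21 (95.2% of symbols matched) gave whole steps (within 0.05) for 92.7% to 93.9% of low values, and 70.3% to 73.9% were even, so 1 fragment may count for more than 1 step and the depths are relative.

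Genes with at least 0.5 RPKM in at least 6 libraries (14087) were fitted with limma 3.58.1 in R 4.3.3 (trend, pseudocount 1, no covariate, two-sided), with Benjamini-Hochberg adjustment over all of them, and tested on simulated data. A fold change on the log2(RPKM + 1) scale understates low genes. The limma p-values set the difference between groups against the spread between hearts of the same group, over these 12 hearts. Cxcl10 and Ifitm1, under the filter, are reported by an exact permutation test over all 924 splits of the hearts, whose smallest possible p is 0.00216. The members, lists and tests were chosen with earlier results of these data known. By the rule for named genes all members are named, with lowest, median and highest values for the 10 of smallest p and for Ifit1, Isg15, Irf7, Gbp2, Igtp, Cxcl9 and Cxcl10. Zbp1 and Mx1 single hearts, and Ifitm1, were added after their values were seen. Other pathway genes are the ligands, receptors, JAK-STAT genes and the 3 of smallest p per role; 1 gene is not reported here. Python 3.11.15, pandas 2.3.3 and matplotlib 3.10.9 were used for tables and plots.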

Additional observations from a re-analysis of the deposited data

Results flagged for a closer look

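A heart stood far from the other 5 of its group in 15 of 70 checks of a group. The checks covered 33 members and both set means in each group. The nominal rate of such a check is about 1 in 20. The rate over all genes was not counted, so whether 15 is more than usual for these hearts was not tested. In 10 of the 15 the heart was CCl4 replicate 3, and its value was the highest of the 6. These were Ifit1 at 4.4 RPKM, Ifit2 at 12.8, Ifit3 at 90.2, Oasl1 at 1.18, Oasl2 at 8.75, Mx1 at 3.72, Isg15 at 28.2, Irf7 at 9.29, Zbp1 at 3.67 and Cxcl10 at 0.553 RPKM. The nearest other CCl4 heart was at 2.33, 7.96, 42.8, 0.654, 4.09, 1.22, 13 and 5.18 RPKM for the first 8, and at 1.42 and 0.209 RPKM for Zbp1 and Cxcl10. These genes share a heart, so the checks are not independent. CCl4 replicate 3 was also the highest heart in 41.4% of the 14087 genes tested.

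The other 5 fell in 5 different hearts. Gbp6 was highest in CCl4 replicate 1, at 18.8 RPKM, above the next CCl4 heart at 13.5 RPKM. Gbp2 was highest in Control replicate 1, at 23.3 RPKM, and Zbp1 in Control replicate 6, at 1.48 RPKM. Xaf1 was lowest in Control replicate 2, at 3.4 RPKM, and Gbp7 in Control replicate 5, at 6.7 RPKM.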

How the results depend on the processing

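In 25 of the 26 alternatives run 0 members passed the adjusted test, and array weights were the exception. With these weights 770 genes were higher and 1479 lower, 2 members higher and 9 lower at an unadjusted p under 0.05 (1678 and 2849 of the 14087 genes), and 5 members passed, all lower (15.6%, against 10.5% of all genes lower): Oasl1, Mx2, Irf7, Ifi44 and Ifi35. The weights ran from 0.258 in CCl4 replicate 3 to 5.7 in CCl4 replicate 5. With a mean RPKM of at least 2, and with the exact rank-sum test, 1 member lay lower at that unadjusted p. With 1 heart left out in turn, genes passing were 0 to 7 higher and 0 to 40 lower (the 7 and 40 without CCl4 replicate 1, 6 and 25 without Control replicate 1, 1 and 0 without CCl4 replicate 4, 0 and 2 without CCl4 replicate 6). The members lying lower were 0 to 11. The type I median ran from -0.191 (without CCl4 replicate 3) to -0.0503 and the type II median from 0.00327 (the same heart left out) to 0.159. With Control replicate 1 and CCl4 replicate 4 both left out (their atrial markers were highest), 1 gene was higher.

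Scaling moved the level of all genes. Under TPM scaling the median of all genes was -0.102, the type I median -0.148 and the type II median 0.0114. Under median-of-ratios scaling they were -0.00525, -0.0496 and 0.147, and before adjustment 772 genes were higher and 788 lower, against 226 and 1209 as deposited (745 and 840 after quantile normalization). The sign of 12 of 32 members changed under some alternative and that of 20 did not.

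Replicate numbers are shared between groups, but same-numbered hearts did not deviate together in all pairs (correlation -0.474 to 0.232, and 2 of 6 Control hearts correlated best with their own number). With the replicate block 2 members lay lower at the unadjusted p, as without it, and 0 genes passed in either direction. Depth limits Cxcl10 most.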
